A study of Mus musculus with 10 samples.

Results

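Interferon response genes encode the receptors, transcription factors, RNA and DNA sensors and antiviral proteins through which a cell answers type I interferon and interferon gamma. To ask how open the chromatin at these genes was in regulatory T cells (Tregs), and whether it differed between lung and spleen or after loss of the lipid kinase Vps34, 39 such genes were followed in an ATAC-seq data set. A peak was assigned to a gene when it lay in the gene body or within 10 kb of it on GRCm38, and a peak within 1 kb of an annotated start of a member gene was called a promoter peak. This gave 188 of the 97385 peaks in the series, all with enough counts for the test, in 37 of the 39 genes. Of these, 56 were promoter peaks, in 34 genes, and 132 lay elsewhere. Ifit3 and Ifi44 had no peak. Ifngr2, Oasl1 and Oas2 had peaks but none at a start.

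ATAC-seq uses the Tn5 transposase to insert sequencing adaptors into open DNA, so that more reads at a site mean more accessible chromatin. The 10 libraries came from Tregs (CD4+ TCRb+ Foxp3-YFP+) sorted from 10-day-old mice on a C57BL/6 background, all of which carried a Cre recombinase with YFP expressed from Foxp3, the gene that defines the lineage. Control mice were Pik3c3 +/+ or +/fl and Vps34-deficient mice were Pik3c3 fl/fl, Pik3c3 being the gene for Vps34, and which control library had which genotype is not given in the sources used here. By the labels, 2 spleen and 2 lung libraries were controls, and 4 spleen and 2 lung libraries were Vps34-deficient. The methods swap both spleen group sizes, and the labels were used here. Deletion is limited to cells that express Foxp3, and nothing in the sources says which libraries came from the same animal, so p-values measure the spread between these libraries, part of which may be technical. In bulk samples, fewer cells of a type and less open chromatin per cell cannot be told apart.

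Type I interferons bind the paired receptor chains Ifnar1 and Ifnar2, and signalling through Janus kinases then assembles a complex with Stat2 and Irf9 that binds the interferon-stimulated response element (ISRE). Interferon gamma binds Ifngr1 and Ifngr2 and acts through the gamma-activated site (GAS). The products include Isg15, a ubiquitin-like modifier, the Ifit, Mx and Oas families, which block viral RNA and proteins, and guanosine triphosphatases of the Gbp and Irg families that act on vacuoles holding intracellular microbes. In Tregs, interferon signalling is known to alter suppressive function during infection.

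Library totals ran from 9405823 to 22439699 counts, with a median of 32 to 72 counts per peak. Levels are normalised counts (CPM, counts relative to the TMM-scaled library total), and differences are log2 fold changes with their standard error (SE). Promoter peaks of the 7 Treg marker genes, Foxp3 among them, summed to between 169.1 and 231.9 CPM in every library. Of the other cell types, 4 of 8 myeloid genes had a promoter peak, and their sum was 36.8 to 38.9 CPM in spleen controls, 25.7 to 32.0 in spleen Vps34-deficient libraries, 43.2 to 50.1 in lung controls and 26.8 to 28.9 in lung Vps34-deficient libraries. The defining myeloid genes Csf1r, Lyz2, Csf3r and Fcgr1 had no promoter peak, nor did the B cell genes Cd79a and Ms4a1 or the lung epithelial genes Sftpc, Sftpb, Cldn18, Krt8 and Scgb1a1. The 3 of 5 plasmacytoid dendritic cell genes with a promoter peak, a cell type that makes large amounts of type I interferon, summed to 54.2 to 58.1 CPM in spleen, 42.1 to 44.7 in lung controls and 46.1 to 48.9 in lung Vps34-deficient libraries, and Siglech and Spib had none. The 4 of 6 CD8 and NK cell genes with a promoter peak summed to 34.6 to 37.3 CPM in lung Vps34-deficient libraries and 25.0 to 31.2 in lung controls. The 5 of 8 B cell genes with a promoter peak summed to 29.4 to 42.1 CPM, the 2 of 7 lung epithelial genes to 19.2 to 25.3 and the 3 of 6 endothelial genes to 27.3 to 35.8 over the 10 libraries. Of these 21 promoters of other cell types, 3 were higher in every lung than in every spleen library, namely endothelial Cdh5 (1.18 to 3.43 against 0.174 to 1.03 CPM), lung epithelial Nkx2-1 (1.33 to 2.14 against 0.347 to 1.10) and NK cell Klrd1 (3.09 to 6.43 against 1.37 to 2.42). Plasmacytoid Tcf4 was lower in every lung library (32.4 to 36.5 against 43.3 to 47.7 CPM). The part of these markers in the tissue differences was not tested.

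The labels of the genes were checked against the sequence of their peaks, read from GRCm38. The ISRE was searched as GAAANNGAAA, GAS as TTCNNNGAA and the AP-1 site as TGANTCA, each on both strands with overlapping matches counted. For peaks, the 300 bases at the peak centre were searched and not the whole peak. An ISRE match was present in 22 of the 56 member promoter peaks (39.3%) and in 3.3% of all promoter peaks of protein-coding genes with sequence. Outside promoters the shares were 9.09% of member peaks and 6.36% of all such peaks. GAS matches were present in 17.9% of member promoter peaks against 5.95% of all, and AP-1 matches in 19.6% against 6.47%. Windows placed at the start were searched as well, the RefSeq promoters from 250 bases before to 50 bases after it (build GRCm38.p6). Of the 38 windows of the 31 matched member genes, 15 held an ISRE match (39.5%), against 3.44% of 32851 windows. GAS matches were present in 28.9% of these member windows against 8.3% of all, and AP-1 matches in 18.4% against 7.81%. A match is a description of letters and not a bound site. No window was given for Mx1, Mx2, Oas2, Usp18, Dhx58, Zbp1, Rtp4 and Parp14.

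The first 4 sequences are RefSeq promoters, on the strand of the gene. Isg15 (chr4:156200769-156201068, minus strand) is shown because it was lower in lung and held 3 overlapping ISRE matches, Ifit1 (chr19:34640639-34640938, plus strand) and Irgm1 (chr11:48871371-48871670, minus strand) because they held 2 ISRE matches each without a tissue call on the average, and Ifnar2 (chr16:91372533-91372832, plus strand) because it was lower in lung with a GAS match and no ISRE match. Capitals mark the matches.
Isg15 promoter: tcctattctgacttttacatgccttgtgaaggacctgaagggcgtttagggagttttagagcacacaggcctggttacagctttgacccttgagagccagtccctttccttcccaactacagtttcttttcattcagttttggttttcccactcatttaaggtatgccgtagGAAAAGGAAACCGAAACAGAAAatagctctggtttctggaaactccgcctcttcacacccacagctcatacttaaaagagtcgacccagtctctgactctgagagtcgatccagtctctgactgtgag
Ifit1 promoter: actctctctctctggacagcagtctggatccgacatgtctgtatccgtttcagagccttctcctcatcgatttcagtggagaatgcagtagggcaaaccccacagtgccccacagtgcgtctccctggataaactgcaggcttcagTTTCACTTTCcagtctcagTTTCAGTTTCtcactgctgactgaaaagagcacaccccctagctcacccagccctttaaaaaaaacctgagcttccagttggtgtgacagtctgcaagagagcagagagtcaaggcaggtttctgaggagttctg
Irgm1 promoter: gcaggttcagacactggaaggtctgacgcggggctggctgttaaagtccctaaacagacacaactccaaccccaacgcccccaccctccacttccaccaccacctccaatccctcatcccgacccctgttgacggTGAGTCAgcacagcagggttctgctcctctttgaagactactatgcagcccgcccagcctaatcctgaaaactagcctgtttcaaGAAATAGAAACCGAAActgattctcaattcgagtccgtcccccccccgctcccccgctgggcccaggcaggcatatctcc
Ifnar2 promoter: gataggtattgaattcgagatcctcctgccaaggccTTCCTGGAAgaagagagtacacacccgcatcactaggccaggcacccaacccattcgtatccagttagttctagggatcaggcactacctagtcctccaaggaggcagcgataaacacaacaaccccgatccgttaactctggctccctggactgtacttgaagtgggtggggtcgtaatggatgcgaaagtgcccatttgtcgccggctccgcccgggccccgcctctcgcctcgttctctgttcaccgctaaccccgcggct
The next 4 are 300 bases at peak centres, on the plus strand of GRCm38. The Igtp flank peak (chr11:58189729-58190028) and the peak between Gbp7 and Gbp3 (chr3:142550275-142550574) were lower in Vps34-deficient Tregs, the Irf2 peak (chr8:46734546-46734845) was lower in lung, and the Irgm1 flank peak (chr11:48859900-48860199) was higher in lung and belongs to a class of narrow peaks described after the promoters. Capitals mark AP-1 matches, and the first and last of the 4 hold none of the 3 motifs.
Igtp flank peak: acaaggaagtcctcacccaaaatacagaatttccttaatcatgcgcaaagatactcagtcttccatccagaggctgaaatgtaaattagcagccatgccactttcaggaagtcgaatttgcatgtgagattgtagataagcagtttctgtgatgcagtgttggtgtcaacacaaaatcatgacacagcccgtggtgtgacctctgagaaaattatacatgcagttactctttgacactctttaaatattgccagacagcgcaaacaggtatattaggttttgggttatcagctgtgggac
Gbp7 to Gbp3 peak: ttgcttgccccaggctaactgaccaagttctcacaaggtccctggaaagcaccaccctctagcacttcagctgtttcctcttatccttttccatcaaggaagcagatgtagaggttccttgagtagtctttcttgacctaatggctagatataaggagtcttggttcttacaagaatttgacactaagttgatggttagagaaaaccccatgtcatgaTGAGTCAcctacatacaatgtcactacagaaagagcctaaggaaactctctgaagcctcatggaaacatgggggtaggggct
Irf2 upstream peak: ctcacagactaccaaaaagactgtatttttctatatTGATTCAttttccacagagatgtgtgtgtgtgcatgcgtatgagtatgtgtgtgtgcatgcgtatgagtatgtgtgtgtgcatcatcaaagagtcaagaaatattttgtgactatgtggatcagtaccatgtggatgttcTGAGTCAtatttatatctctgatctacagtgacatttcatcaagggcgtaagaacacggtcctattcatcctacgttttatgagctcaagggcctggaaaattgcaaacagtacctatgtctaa
Irgm1 flank peak: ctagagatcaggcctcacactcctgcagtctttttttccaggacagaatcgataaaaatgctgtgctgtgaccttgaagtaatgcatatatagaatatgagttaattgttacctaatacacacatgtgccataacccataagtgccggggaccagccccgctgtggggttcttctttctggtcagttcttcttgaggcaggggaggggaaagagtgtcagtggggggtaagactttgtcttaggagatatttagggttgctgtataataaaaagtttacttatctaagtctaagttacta

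Each of the 34 genes with a promoter peak was first described by the promoter peak with the highest mean. The promoters were open in all groups, from 3.61 CPM at Dhx58, which encodes the RNA sensor LGP2, to 75.1 CPM at Ifngr1, with a median of 25.5 CPM. The receptor chain promoters were among the most open, Ifngr1 in the 98.0th percentile of all tested peaks by mean and Ifnar1 at 70.9 CPM in the 97.7th, whereas Ifnar2 stood at 21.4 CPM. Promoters of the transcription factors ran from 32.1 CPM at Irf9 to 72.5 CPM at Irf2, which antagonises Irf1. Among the sensors, Ifih1 (MDA5) stood at 57.2 CPM, Zbp1 at 47.3 CPM and Ddx58 (RIG-I) at 19.3 CPM. Effector promoters covered the range from 3.94 CPM at Oas3 to 46.2 CPM at Isg20, an RNA exonuclease.

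**Figure D1:**
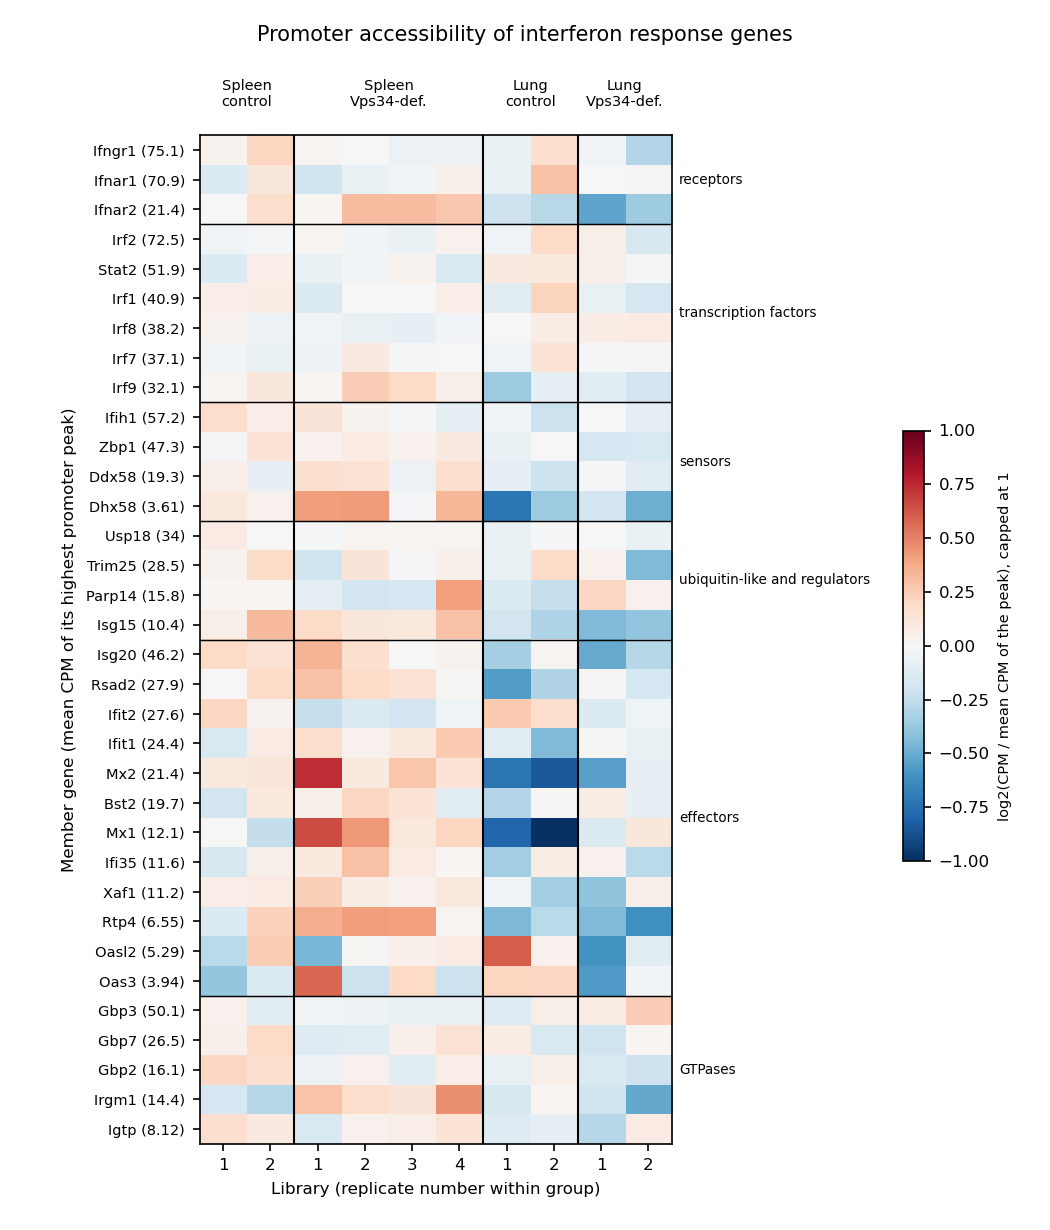
Promoter accessibility of 34 interferon response genes in each library, drawn as the log2 ratio of CPM to the mean CPM of the peak (colour scale capped at 1 in both directions), with the mean CPM after the gene name and genes grouped by role. Mx1, Mx2, Rtp4, Dhx58, Isg15 and Ifnar2 are mostly blue in the lung columns, and the rows of Irf7, Irf8, Usp18 and Gbp3 are pale throughout.

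Most of these promoters varied little with genotype or tissue. Averaged over genotypes, a peak was called different between lung and spleen when edgeR's quasi-likelihood test gave a Benjamini-Hochberg adjusted p below 0.05 over all 97109 tested peaks with a log2 fold change beyond 0.5 in size. Of the 34 promoters, 28 had a tissue log2 fold change within 0.5, none was called higher in lung and 6 were called lower. The median was -0.15, against -0.072 over all promoter peaks, and 8 of the 34 lay above 0. Isg20 (-0.43, edgeR adjusted p = 0.000724), Rsad2 (-0.35, 0.00773) and Irf9 (-0.29, 0.0145) were lower in lung but short of the fold threshold. For genotype, averaged over tissues, 33 of the 34 lay within 0.5, 1 was called higher in Vps34-deficient Tregs and none lower, with a median close to 0 (-0.0038). Several transcription factor promoters kept one level in every group. The Irf7 promoter, whose product amplifies the type I response, had 36.4 and 35.3 CPM in spleen controls, 35.9, 39.6, 36.7 and 37.0 in spleen Vps34-deficient, 36.0 and 40.8 in lung controls and 36.8 and 36.7 in lung Vps34-deficient libraries. All 10 values lay close together and the groups overlapped. The Irf8 promoter ran from 36.0 to 40.4 CPM over the 10 libraries and that of Usp18, the protease that removes Isg15, from 32.5 to 36.1 CPM. Over all 56 promoter peaks of members, 2 were called higher in lung (3.57%) and 6 lower (10.7%), whereas of the 19986 promoter peaks tested in the series 6.11% were higher and 3.37% lower. For genotype, 2 of 56 were higher (3.57%) and none lower, against 1.15% and 1.78% of all promoter peaks, and 6 of the 56 had an unadjusted p below 0.05 in either direction. The peaks higher in lung were at secondary starts, of Rtp4 (chr16:23519518-23519727, log2 fold change 1.56, a narrow peak) and of Ifnar1 (chr16:91504661-91504886, 2.14, at most 2.14 CPM), and are named after their values were seen. The counts among members are small, and the difference of these shares was not tested.

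The 6 promoters that were lower in lung belonged to a receptor chain, a ubiquitin-like modifier, a sensor and 3 effectors. Mx2 belongs to the Mx family of dynamin-like guanosine triphosphatases, and its most open promoter peak (chr16:97535490-97536447, centred in an intron) had 22.9 and 23.2 CPM in spleen controls, 35.7, 22.9, 25.9 and 23.5 in spleen Vps34-deficient, 12.9 and 11.9 in lung controls and 14.6 and 20.2 in lung Vps34-deficient libraries. Every lung library lay below every spleen library. The log2 fold change was -0.75 (SE 0.13, edgeR adjusted p = 0.000109). The Isg15 promoter (chr4:156200683-156200998, the peak over the sequence with 3 ISRE matches) had 10.9 and 13.0 CPM in spleen controls, 11.9, 11.3, 11.2 and 12.8 in spleen Vps34-deficient, 9.16 and 8.39 in lung controls and 7.65 and 7.94 in lung Vps34-deficient libraries. The tissues did not overlap, and the log2 fold change was -0.53 (SE 0.14, edgeR adjusted p = 0.00526). It fell short of the fold threshold without spleen control 2 (-0.48) or lung Vps34-deficient 1 (-0.50). The Ifnar2 promoter (chr16:91372410-91373701, over an untranslated exon) had 21.5 and 24.2 CPM in spleen controls, 21.7, 26.5, 26.5 and 25.8 in spleen Vps34-deficient, 18.5 and 17.7 in lung controls and 14.8 and 16.7 in lung Vps34-deficient libraries. Again the tissues did not overlap (log2 fold change -0.52, SE 0.11, edgeR adjusted p = 0.000851), while Ifnar1, the other chain of the same receptor, had a log2 fold change of 0.09 (edgeR adjusted p = 0.426). The Ifnar2 call was lost under 4 of 21 alternatives, each short of the fold threshold, among them leaving out lung Vps34-deficient 1 (-0.44) and offsets for GC content (-0.47).

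The other 3 were smaller in level or overlapped. The Mx1 promoter (chr16:97462777-97463262) was lower in lung by the fit (log2 fold change -0.59, edgeR adjusted p = 0.00555), although the lung Vps34-deficient libraries reached into the spleen range and the value without lung control 2 was -0.50, just short of the threshold. Mx1, the close relative of Mx2, carries an inactivating deletion in C57BL/6 mice, and Mx2 of common laboratory strains is also held to be defective, so that accessibility at either gene does not stand for a working protein. At the start of Rtp4, a chaperone of receptors, the peak (chr16:23609559-23610232) had a spleen range of 5.95 to 8.73 CPM and a lung range of 4.29 to 5.45 CPM (log2 fold change -0.64, edgeR adjusted p = 0.00743), and at Dhx58 (chr11:100704127-100704481) the ranges were 3.56 to 4.85 and 2.18 to 3.16 CPM (log2 fold change -0.61, edgeR adjusted p = 0.0329). The tissues did not overlap at either gene. The Dhx58 call was lost under 6 of 21 alternatives, among them leaving out spleen control 1 (edgeR adjusted p = 0.0518), spleen control 2 (0.0575), lung control 1 (0.0769) or lung Vps34-deficient 2 (0.0906). The Rtp4 peak held 4 ISRE matches and the Dhx58 peak 1. Over the promoter peaks with an ISRE match in their central 300 bases, none of 22 was higher and 3 were lower in lung. Without such a match 2 of 34 were higher and 3 lower, so the lower calls fell on both. Of all promoter peaks tested, 6.11% were higher and 3.37% lower. At Stat2, Ifih1, Ddx58 and Gbp2 the RefSeq promoter held a match although the central 300 bases of the most open promoter peak did not.

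Over all 188 member peaks, 21 were called higher in lung (11.2%) and 21 lower (11.2%), with a median log2 fold change of -0.08. In the series, 18.4% of tested peaks were higher and 6.51% lower, with a median of -0.0061. Within genotypes the counts were 17 higher and 11 lower in controls, where 11.8% and 3.53% of all peaks were called, and 16 higher and 15 lower in Vps34-deficient Tregs, where 12.5% and 4.72% were. By role, 5 of 25 receptor peaks were higher and 2 lower, 2 and 5 of 34 transcription factor peaks, 0 and 3 of 19 sensor peaks, 3 and 4 of 22 peaks of the ubiquitin-like group, 9 and 6 of 57 effector peaks and 2 and 1 of 31 peaks of the Gbp and Irg guanosine triphosphatases.

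The peaks higher in lung and those lower in lung differed in width. Of the 21 higher peaks, 13 were between 209 and 216 bases wide, from 1 below to 6 above the commonest width in the table, a class set after seeing the data, and of the 21 lower peaks none was, their widths running from 246 to 1386 bases with a median of 364. This class holds 12827 of the 97385 peaks of the table (13.2%), 6921 of them exactly 210 bases wide. In the series 84.1% of the tested peaks of the class were called higher in lung and 0.686% lower, against 8.38% and 7.39% of peaks of other widths, and the class supplied 10791 of the 17852 peaks called higher. The share of a library's counts in the class was 3.13% to 4.07% in spleen controls, 4.12% to 5.83% in spleen Vps34-deficient, 6.46% to 10.9% in lung controls and 11.4% to 12.5% in lung Vps34-deficient libraries. The class thus moved with tissue as a whole, and what it consists of was not tested. Among members, 15 peaks were in the class, and apart from these 8 of 173 were higher in lung (4.62%) and 21 lower (12.1%).

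**Figure D2:**
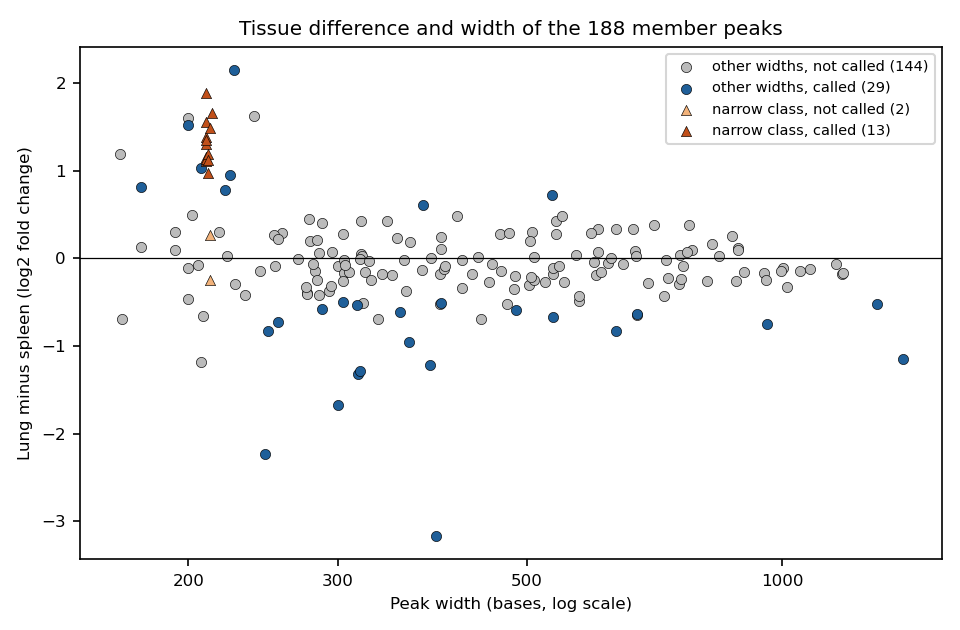
Tissue difference (lung minus spleen, log2 fold change, averaged over genotypes) against the width of each of the 188 member peaks in bases on a log scale. Triangles mark the 15 peaks of 209 to 216 bases, of which 13 were called higher in lung, and of the other 173 peaks 8 were called higher and 21 lower.

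Because the class takes a larger share of the counts in lung than in spleen, the fit and the scaling were repeated without it, an alternative chosen after seeing the data. This left 11 member peaks higher in lung and 15 lower, with 3 promoters lower, where 8.75% of the 84275 peaks tested in that fit were higher and 5.57% lower. The Isg15 promoter then had a log2 fold change of -0.47 (edgeR adjusted p = 0.0166) and the Ifnar2 promoter -0.47 (edgeR adjusted p = 0.00278), on the same side but short of the fold threshold, and the Dhx58 promoter lost its call too. Mx2, Mx1 and Rtp4 kept theirs.

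The strongest narrow peak lay 1814 bases past Irgm1 (chr11:48859945-48860154, 210 bases, the sequence without a motif match). Irgm1 encodes a regulatory immunity-related guanosine triphosphatase. The peak had 54.6 and 83.4 CPM in spleen controls, 107, 93.7, 67.4 and 103 in spleen Vps34-deficient, 193 and 125 in lung controls and 182 and 220.3 in lung Vps34-deficient libraries, which put it in the 99.5th percentile of all peaks by mean. All lung libraries lay above all spleen libraries (log2 fold change 1.15, SE 0.12, edgeR adjusted p = 5.97e-08). The Irgm1 promoter itself (chr11:48871270-48871795) ran from 11.8 to 19.9 CPM in spleen and from 10.1 to 14.6 CPM in lung and was not called on the average (log2 fold change -0.27, edgeR adjusted p = 0.193). Among Vps34-deficient libraries alone it was called lower in lung (log2 fold change -0.61, edgeR adjusted p = 0.0149), and in controls it was 0.16 (edgeR adjusted p = 0.646). The interaction of genotype and tissue at this promoter was not called (-0.76, edgeR adjusted p = 0.472). The other narrow peaks with the smallest p-values lay in Parp14 (chr16:35867372-35867583, log2 fold change 1.48), in an intron of the long Rtp4 gene model (chr16:23590464-23590673, 1.39), 7420 bases from the Isg15 start (chr4:156208238-156208447, 1.88) and in an intron of Mx1 (chr16:97448696-97448908, 1.65), where the tissues overlapped. At Isg15, Mx1 and Rtp4, therefore, an assigned narrow peak was higher in lung while the promoter was lower. In the series 84.1% of the class was higher in lung, so this is not particular to these genes. Of the 4 Isg15 peaks, 3 lie nearest to the start of another gene.

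Outside the narrow class, the member peak with the smallest p-value for tissue was intronic in Gbp7 (chr3:142533122-142533656, 535 bases), a guanylate-binding protein that is induced by interferon gamma. It had 31.6 and 32.8 CPM in spleen controls, 26.1, 29.3, 25.9 and 28.8 in spleen Vps34-deficient, 50.8 and 53.5 in lung controls and 45.9 and 45.7 in lung Vps34-deficient libraries. Every lung library lay above every spleen library, and the log2 fold change was 0.72 (SE 0.08, edgeR adjusted p = 1.38e-07). With offsets for GC content it was 0.47, short of the fold threshold. A peak 4461 bases from Ifnar1 (chr16:91480571-91480777) had a spleen range of 4.14 to 5.30 CPM and a lung range of 7.51 to 11.1 CPM (log2 fold change 1.02, edgeR adjusted p = 3.73e-05), and an Irf2 intron (chr8:46752106-46752305) had ranges of 0.824 to 2.21 and 2.83 to 6.22 CPM (log2 fold change 1.52, edgeR adjusted p = 0.000208). They are 207 and 200 bases wide, close to the class.

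The largest difference among members was a loss in lung downstream of Ifit1, which encodes a protein that binds foreign RNA ends. The peak (chr19:34656457-34656847, 6448 bases from the gene) had 3.36 and 4.26 CPM in spleen controls, 2.00, 2.06, 2.17 and 3.26 in spleen Vps34-deficient, 0.872 and 0.442 in lung controls and 0 and 0.214 in lung Vps34-deficient libraries. All spleen libraries lay above all lung libraries, where the peak was at or near 0. The log2 fold change was -3.16 (SE 0.43, edgeR adjusted p = 3.73e-06). The Ifit1 promoter, which lies over a start of the related gene Ifit1bl2 as well and holds 2 ISRE matches, had a spleen range of 22.0 to 29.2 CPM and a lung range of 18.0 to 24.6 CPM and was not called (log2 fold change -0.20, edgeR adjusted p = 0.148).

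At Irf2, 18 peaks were spread over the gene, 2 of them higher and 3 lower in lung. The upstream peak with 2 AP-1 matches (chr8:46734546-46734845, 4887 bases from the start) had 3.71 and 6.04 CPM in spleen controls, 5.93, 5.82, 7.30 and 7.24 in spleen Vps34-deficient, 0.872 and 1.62 in lung controls and 3.16 and 1.29 in lung Vps34-deficient libraries. The tissues did not overlap (log2 fold change -1.67, SE 0.26, edgeR adjusted p = 1.90e-05). An intronic peak (chr8:46832473-46832857) was lower as well, with a log2 fold change of -1.21 (edgeR adjusted p = 0.000512), whereas the Irf2 promoter stayed at 64.8 to 83.5 CPM in all 10 libraries.

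Further lower peaks lay in the neighbourhood of members. One assigned to Ifnar2 (chr16:91413094-91413730) falls in an intron of Il10rb, a chain of the interleukin 10 receptor, and had a spleen range of 17.8 to 25.1 CPM against 9.60 to 13.3 CPM in lung (log2 fold change -0.83, edgeR adjusted p = 1.81e-05). Another, 4255 bases from Gbp3 (chr3:142577464-142578849), ran from 4.53 to 9.52 CPM in spleen and from 2.33 to 3.27 CPM in lung (log2 fold change -1.14, edgeR adjusted p = 0.000491). Some calls therefore lay nearer to another gene. Peaks whose nearest protein-coding start was that of a member, an assignment added after seeing the data, held 19 of the 21 higher and 15 of the 21 lower calls. These counts say where the calls lay and give no share, because fewer than the 188 peaks have such a start. Of all tested peaks, 18.4% were higher and 6.51% lower.
The remaining calls are named after their values were seen. Lower peaks lay near Rsad2, which encodes viperin (-0.96), Irf9 (-1.32 and, at the start of Rec8, -0.67), Ifih1 (-2.23), Irf2 (-1.28), Mx1, Parp14, Dhx58 and Usp18 (2 peaks). Higher peaks lay near Ifngr1 (3 peaks, 0.61 to 1.11), Trim25, a ubiquitin ligase of the RIG-I pathway (0.81), Oas3 (2 peaks), Oasl1, Oasl2, Irf2 and Rtp4 (4 peaks in all).

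**Figure D3:**
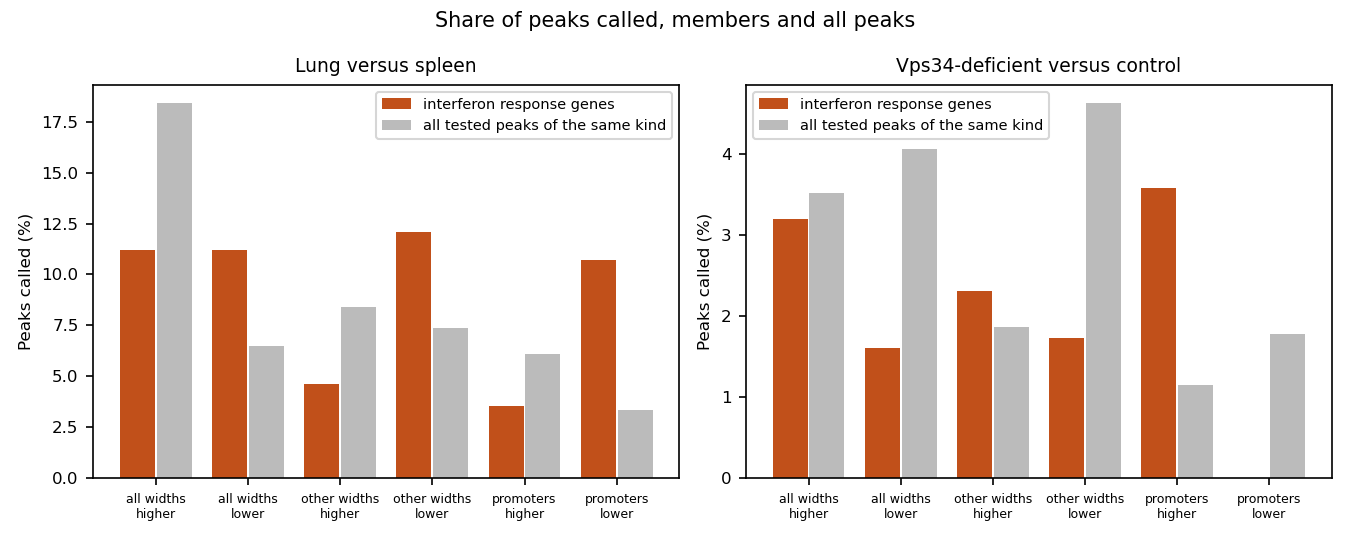
Share of peaks called in each direction (percent), for member peaks and for all tested peaks of the same kind, by tissue and by genotype, over all widths, over widths outside 209 to 216 bases, and over promoter peaks. Members have fewer lung-higher and more lung-lower calls than all peaks, in bars that rest on 188, 173 and 56 member peaks.

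Loss of Vps34 was called at fewer member peaks. Averaged over tissues, 6 of 188 were higher in Vps34-deficient Tregs (3.19%) and 3 lower (1.6%), with a median log2 fold change of 0.05, against 3.52% and 4.06% of all tested peaks and a median of 0.04. The share of higher calls was near the background of the series. All 3 lower calls fell on the guanosine triphosphatases, at 3 of their 31 peaks, and 4 of the 6 higher calls on the 57 effector peaks. The sum over myeloid marker promoters was lower in Vps34-deficient libraries of both tissues, as given above. Within lung the CD8 and NK cell sum and the plasmacytoid dendritic cell sum were higher in each Vps34-deficient library than in either control. Of the plasmacytoid genes, Ccr9 separated the genotypes in lung, and Tcf4 and Bcl11a overlapped. The part of these markers in the calls was not tested.

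The member peak that differed most lay 9408 bases upstream of Igtp (chr11:58189608-58190148), which encodes an interferon-inducible guanosine triphosphatase also known as Irgm3. The peak lies nearly as close to Irgm2, a further gene of this family (9470 bases), and all 9 peaks assigned to Igtp are within 10 kb of Irgm2, so the peak cannot be credited to one of them. It had 6.46 and 6.45 CPM in spleen controls, 2.48, 2.42, 2.17 and 2.48 in spleen Vps34-deficient, 8.94 and 14.0 in lung controls and 2.16 and 2.36 in lung Vps34-deficient libraries. Every Vps34-deficient library lay below every control, in both tissues. The log2 fold change was -1.80 (SE 0.21, edgeR adjusted p = 2.39e-06), with -1.44 in spleen (edgeR adjusted p = 0.00122) and -2.35 in lung (edgeR adjusted p = 4.13e-05), and the average was between -1.91 and -1.62 and called under all 21 alternatives tried. The spleen call was lost with a replicate block (-1.40, edgeR adjusted p = 0.0683). The Igtp promoter (chr11:58199166-58199702), which lies in the Irgm2 gene model too and holds 1 ISRE and 1 GAS match, had 9.14 and 8.65 CPM in spleen controls, 7.31, 8.36, 8.51 and 8.94 in spleen Vps34-deficient, 7.42 and 7.66 in lung controls and 6.65 and 8.58 in lung Vps34-deficient libraries. The promoter groups overlapped and it was not called (log2 fold change -0.06, edgeR adjusted p = 0.843).

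The other 2 lower peaks lay at the end of Gbp7 and between Gbp7 and Gbp3, 2 guanylate-binding proteins. The peak between the genes (chr3:142550121-142550727, which touches the end of Gbp7 and holds 1 AP-1 match) had 16.7 and 12.4 CPM in spleen controls, 11.2, 9.33, 9.47 and 9.36 in spleen Vps34-deficient, 21.4 and 20.6 in lung controls and 12.5 and 9.65 in lung Vps34-deficient libraries. Within each tissue the genotypes did not overlap (log2 fold change -0.72, SE 0.14, edgeR adjusted p = 0.00131). The peak over the last exon of Gbp7 (chr3:142546703-142547098) had 9.91 and 8.10 CPM in spleen controls, 5.79, 7.39, 6.34 and 7.09 in spleen Vps34-deficient, 12.4 and 12.7 in lung controls and 6.49 and 4.72 in lung Vps34-deficient libraries. All 6 Vps34-deficient libraries lay below all 4 controls (log2 fold change -0.73, SE 0.17, edgeR adjusted p = 0.00713). Both calls were kept under all 21 alternatives. The Gbp7 and Gbp3 promoters had log2 fold changes of -0.10 and 0.07 for genotype and were not called.

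Higher accessibility in Vps34-deficient Tregs was called at a promoter peak of each Mx gene. The Mx1 promoter had 12.2 and 10.3 CPM in spleen controls, 19, 16.4, 13.0 and 14.0 in spleen Vps34-deficient, 6.98 and 5.23 in lung controls and 11.0 and 13.1 in lung Vps34-deficient libraries. Within each tissue all Vps34-deficient libraries lay above the controls (log2 fold change 0.66, SE 0.15, edgeR adjusted p = 0.00782). The Mx2 promoter peak upstream of the start (chr16:97534855-97535364, with 1 ISRE match) had 9.82 and 10.3 CPM in spleen controls, 12.2, 12, 11.0 and 9.93 in spleen Vps34-deficient, 5.23 and 6.04 in lung controls and 11.8 and 13.1 in lung Vps34-deficient libraries. The genotypes separated in lung and overlapped in spleen (log2 fold change 0.53, SE 0.16, edgeR adjusted p = 0.0422, lost under 9 of 21 alternatives, with an adjusted p of up to 0.158 when lung control 2 was left out). The more open Mx2 peak at the start was not called (log2 fold change 0.32, edgeR adjusted p = 0.117). Mx1 and Mx2 are close paralogs, so reads may have been shared between like sequences, which was not tested.

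**Figure D4:**
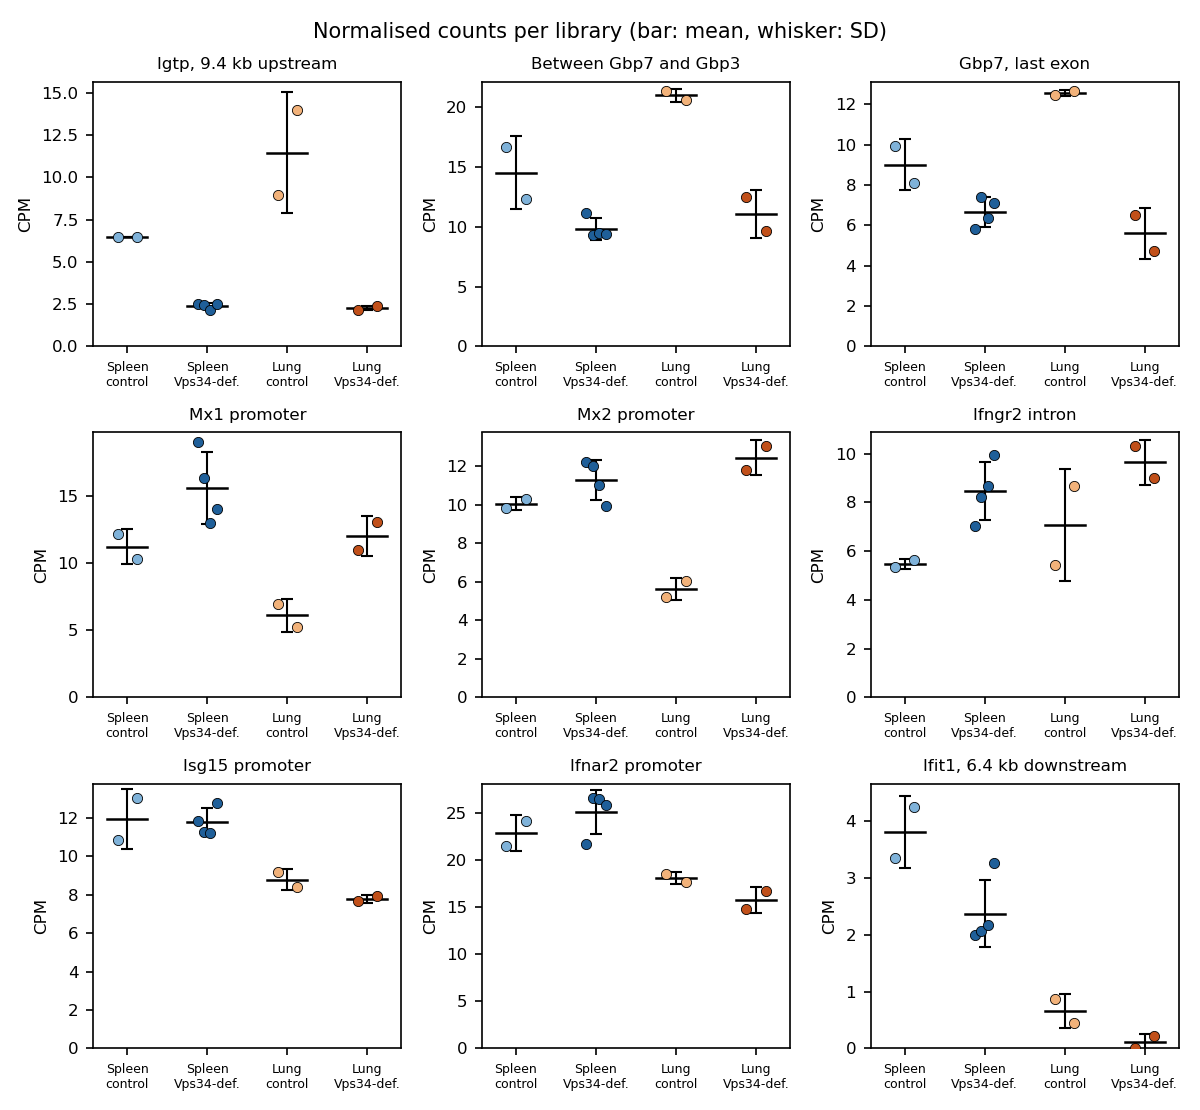
Normalised counts (CPM) of 9 member peaks in each library, as points, with the group mean (bar) and SD (whisker), for spleen and lung, control and Vps34-deficient. The Igtp flank and the Gbp7 peaks are lower in Vps34-deficient libraries, the Mx1 promoter is higher, and the Isg15 and Ifnar2 promoters and the Ifit1 downstream peak are lower in lung.

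The remaining higher calls were in Ifngr2, Oasl1, Rtp4 and near Irf9. In an intron of Ifngr2 (chr16:91553609-91554150), the single peak of this receptor chain had 5.34 and 5.63 CPM in spleen controls, 7.04, 8.24, 8.68 and 9.93 in spleen Vps34-deficient, 5.45 and 8.69 in lung controls and 10.3 and 9.01 in lung Vps34-deficient libraries. Each tissue separated the genotypes, and the log2 fold change was 0.55 (SE 0.17, edgeR adjusted p = 0.0378), a call lost under 8 of 21 alternatives, 7 of which left out a single library (adjusted p of up to 0.122 without spleen control 1). A peak at the start of Rec8, 7682 bases from Irf9 (chr14:55617712-55618248), had a log2 fold change of 0.56 (edgeR adjusted p = 0.0492, lost under 10 of 21). Without spleen control 1 this log2 fold change was 0.34. An intronic peak of Oasl1 (chr5:114926087-114926297, log2 fold change 1.24, edgeR adjusted p = 0.00966, kept under all 20 alternatives) and the Rtp4 intron peak (0.60, edgeR adjusted p = 0.0383, lost under 9 of 20) both belong to the narrow class. In that class 14.4% of peaks in the series were called higher in Vps34-deficient Tregs and 0.366% lower, against 1.86% and 4.62% of peaks of other widths. Outside the class, 4 of 173 member peaks were higher and 3 lower.

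**Figure D5:**
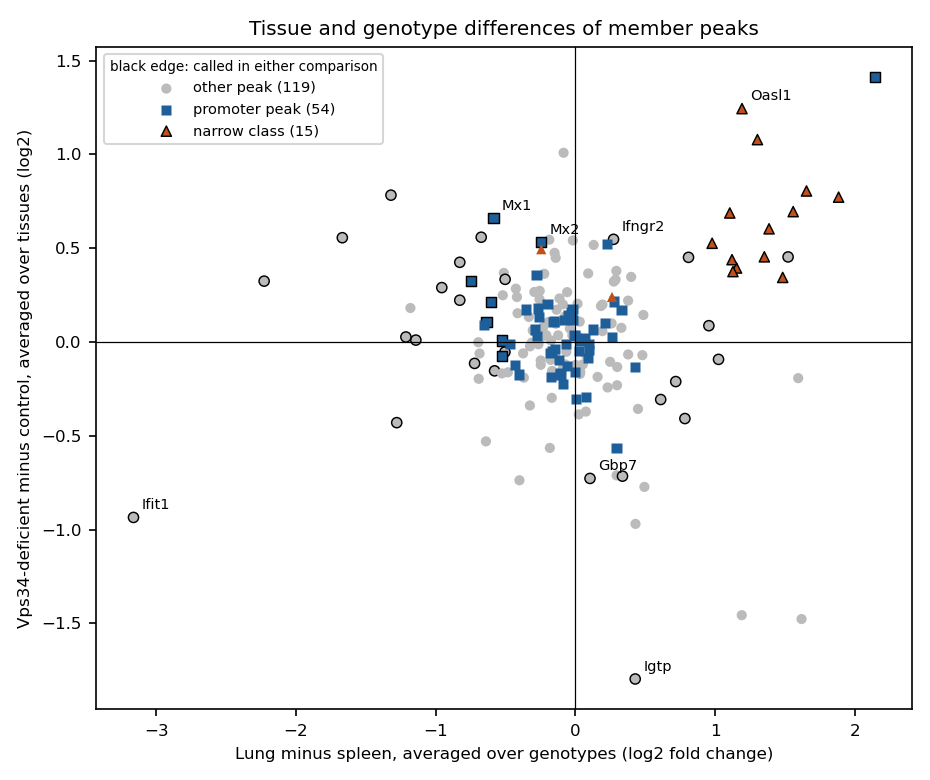
Genotype difference (Vps34-deficient minus control, averaged over tissues, log2 fold change) against tissue difference (lung minus spleen, averaged over genotypes, log2 fold change) for the 188 member peaks, with narrow peaks (209 to 216 bases) as triangles, other promoter peaks as squares and called peaks outlined. Promoter squares crowd around 0 apart from a low-count peak of Ifnar1 at 2.14, the Igtp flank peak lies lowest at -1.80, and 13 of the 15 narrow peaks were called higher in lung.

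Within spleen, the Igtp flank peak was the single member called lower (0.532% of members) and no member was called higher, while 1.02% of all peaks were lower and 0.441% higher. An unadjusted edgeR p below 0.05 was found at 18 of 188 members and at 13901 of the 97109 tested peaks. Within lung, 3 members were higher and 4 lower, against 1.22% and 3.74% of all peaks. The higher ones were the Mx1 promoter (log2 fold change 0.99, edgeR adjusted p = 0.0148), the Mx2 promoter (1.13, edgeR adjusted p = 0.00291) and the Oasl1 intron (1.61, edgeR adjusted p = 0.0309). In the same libraries the plasmacytoid dendritic cell marker sum was higher (46.1 to 48.9 against 42.1 to 44.7 CPM), as was the CD8 and NK cell sum (34.6 to 37.3 against 25.0 to 31.2). The myeloid sum was lower (26.8 to 28.9 against 43.2 to 50.1). Among the plasmacytoid genes, Ccr9 separated the genotypes in lung (7.32 and 7.29 against 4.36 and 5.30 CPM), whereas Tcf4 and Bcl11a overlapped. The part of these markers was not tested. The lower ones were the Igtp flank, the Gbp7 last exon (-1.15, edgeR adjusted p = 0.00515), the peak between Gbp7 and Gbp3 (-0.92, edgeR adjusted p = 0.00889) and an Irf2 intron (chr8:46799218-46799560). That Irf2 peak had 4.58 and 5.67 CPM in lung controls, 1.16 and 1.29 in lung Vps34-deficient, 1.72 and 2.47 in spleen controls and 1.38, 0.849, 2.61 and 2.13 in spleen Vps34-deficient libraries. The genotypes separated in lung and overlapped in spleen (log2 fold change in lung -2.07, edgeR adjusted p = 0.0102). With 2 libraries in each lung group, separation was common among members (40 higher and 41 lower of 188) and adds no support to a call. Its share over all peaks was not counted. The difference between tissues in the effect of Vps34 loss was tested as an interaction, and edgeR called no peak, 0% of all 97109, with 7060 at an unadjusted p below 0.05. At members 14 of 188 had an unadjusted p below 0.05, and the Wald test of DESeq2 also called none of them, though it called 5 higher and 30 lower peaks in the series. Without lung control 1, the count of members called within lung was 13, where 5.18% of all peaks were higher and 4.06% lower. It was 3 without lung control 2, with 0.483% and 1.08% of all peaks, and 3 without lung Vps34-deficient 2, with 1.01% and 1.9%. The Mx1 (edgeR adjusted p = 0.158), Oasl1 (0.227), Gbp7 to Gbp3 (0.053) and Irf2 (0.0965) calls within lung were lost without lung control 2. The same calls and that at the Gbp7 last exon (edgeR adjusted p = 0.0939) were lost without lung Vps34-deficient 2. The Oasl1 and Irf2 calls were also lost without lung Vps34-deficient 1 (edgeR adjusted p = 0.11 and 0.108). The Igtp and Mx2 calls were kept without any single library. With the 2 lung groups fitted alone, 5 of the 7 calls were lost, at Mx2 (edgeR adjusted p = 0.054), Mx1 (0.111), Oasl1 (0.0931), the Gbp7 last exon (0.0546) and Gbp7 to Gbp3 (0.0593), and 0.153% of all peaks were higher and 1.85% lower. With a replicate block the Oasl1 call within lung was lost as well (edgeR adjusted p = 0.069).

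The rest of the pathway was read from 2 lists. For the 20 signalling genes, with 136 peaks, 13 were higher and 5 lower in lung and 2 were higher and 3 lower in Vps34-deficient Tregs. These are 9.56% and 3.68% for tissue and 1.47% and 2.21% for genotype, each below the share of all tested peaks (18.4%, 6.51%, 3.52% and 4.06%), a difference that was not tested. Socs1 and Socs3, which inhibit Janus kinases, were among those with tissue differences. A peak near Socs3 (chr11:117965603-117966031) had a spleen range of 6.62 to 11.8 CPM and a lung range of 16.1 to 26.6 CPM (log2 fold change 1.03, edgeR adjusted p = 3.48e-06). Near Socs1, a peak at chr16:10788951-10789178 was lower in lung (-1.27, edgeR adjusted p = 5.10e-06) and another at chr16:10781956-10782218 higher (0.85, edgeR adjusted p = 0.000587). For genotype, a peak near Mavs, the adaptor of the RNA sensors (chr2:131253571-131254363), had 22.7 and 22.2 CPM in spleen controls, 14.1, 14.7, 14.0 and 12.8 in spleen Vps34-deficient, 33.6 and 40.2 in lung controls and 20.1 and 10.9 in lung Vps34-deficient libraries. The genotypes separated in each tissue (log2 fold change -0.92, SE 0.14, edgeR adjusted p = 8.12e-05). Stat3, which relays interleukin signals as well, had an intronic peak with 1 ISRE match (chr11:100921289-100921653) that was higher in Vps34-deficient Tregs (1.13, edgeR adjusted p = 0.00736).

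The second list held 56 further interferon targets, 50 of them with a peak, and gave 226 peaks that were not members. Of these 22 were higher and 14 lower in lung, and 8 were higher and 10 lower in Vps34-deficient Tregs. The shares were 9.73% and 6.19% for tissue, against 18.4% and 6.51% of all tested peaks, and 3.54% and 4.42% for genotype, close to the 3.52% and 4.06% of all. The smallest p-values for genotype were at a peak near Ccl5, a chemokine for effector T cells (chr11:83535023-83535465, log2 fold change -1.56, edgeR adjusted p = 5.85e-06), where controls ran from 5.60 to 9.86 CPM and Vps34-deficient libraries from 2.21 to 2.57 CPM without overlap, and at an intron of Gbp10 (chr5:105244747-105245241, -1.25, edgeR adjusted p = 0.000397). An intron of Eif2ak2, which encodes the RNA-activated kinase PKR, had a log2 fold change of -2.56 at low counts, at most 3.53 CPM. In the other direction stood a peak at the neighbouring chemokine genes Cxcl9 and Cxcl10 (chr5:92336711-92337356, 1.10, edgeR adjusted p = 0.000993) and one near Iigp1 with 2 ISRE matches (0.86, edgeR adjusted p = 0.0137). The 3 targets with the smallest p-values for higher lung accessibility, at Gbp8 and Gbp9 (1.33), Psmb9 and Tap1 (1.2) and Phf11b and Phf11d (1.54), were all narrow peaks of 210 to 214 bases.

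The limits of the assignment rule cut through a few loci. The members just inside 10 kb were at Trim25 (9497 bases away, tissue log2 fold change -0.17) and Ifngr1 (9508 bases, 0.61), and the peaks just outside were near Stat2 (10214 bases, 0.20) and Dhx58 (10298 bases, -0.15). The promoter peaks just inside 1 kb lay 679 and 718 bases from a start, and those just outside lay 1001 bases from Ifnar2 and 1009 from Irf1.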

How the data were processed

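Raw ATAC-seq counts per peak were deposited by the authors as 1 table of 97385 peaks in 10 libraries, and no per-sample column was left out (unused columns, 0). By the study's methods, reads were trimmed, aligned with BWA, filtered for duplicates, shifted for Tn5 insertion and reduced to nucleosome-free fragments. Peaks were called per sample with MACS2, kept if found in enough replicates and merged between groups, and reads were counted with bedtools. The submitters' processing notes name cutadapt 1.9, Picard 1.65, SAMtools, MACS2 2.1.0.20150603 and bedtools. Nearly all counts are even (91.5% to 96.5% per library), as when both mates of a pair are counted, so reads are not independent molecules and halved counts were tried. The methods name mm9 and the labels mm10. Of 22028 protein-coding starts of GRCm38, 51.1% fell inside a peak as deposited and 2.66% to 2.81% once peaks were shifted, and GRCm38 with GENCODE M21 was used.

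Counts were scaled with TMM and tested with edgeR 4.0.16 (R 4.3.3, quasi-likelihood test) after filterByExpr left 97109 peaks. Averaged tissue and genotype effects came from an additive model over all 10 libraries, and effects within 1 tissue or genotype and the interaction from a model with 4 groups. The biological coefficient of variation was 17.8%. P-values were adjusted over all tested peaks by Benjamini-Hochberg, and a call needed an adjusted p below 0.05 and a log2 fold change beyond 0.5 in size. CPM were computed from counts and TMM factors without a prior count, and log CPM with a prior count of 2 served only the check of pairing and the GC offsets. Library totals of 9405823 to 22439699 counts give a median of 32 to 72 counts per peak, and low peaks are the least precise. Motifs were searched in Python 3.11.15, with no sequence for 135 peaks, and figures were drawn with matplotlib 3.10.9. Members and lists were chosen with earlier results of these data known. Named were the promoter peak with the highest mean of each gene, up to 8 called member peaks with the smallest p-values per comparison and direction, and up to 3 called peaks per averaged comparison and direction from each of the pathway lists. The scripts were tested on simulated data. Alternatives were other scalings and filters, no minimum fold change, DESeq2 1.42.0, a replicate block, a chromosome Y covariate, GC offsets, halved counts, groups alone, windows of 2 and 25 kb, a promoter distance of 500 bases, leaving out each library and, added after seeing the data, nearest starts and the omission of peaks of 209 to 216 bases. Some items of the lists are not reported here.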

Additional observations from a re-analysis of the deposited data

Results flagged for a closer look

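In 9 of 60 groups tested, 1 of the 4 spleen Vps34-deficient libraries stood apart from the other 3 by Dixon's criterion, which chance meets in about 1 of 20 groups. Spleen Vps34-deficient 1 was lowest at the Usp18 promoter (33.5 CPM, the others 34.7 to 34.8), at the Ifnar2 promoter (21.7 CPM, the others 25.8 to 26.5) and at the Oasl2 promoter (3.86 CPM, the others 5.33 to 5.60). The same library was highest at the peak near Gbp3 (9.52 CPM, the others 5.12 to 5.82) and at the peak between Gbp7 and Gbp3 (11.2 CPM, the others 9.33 to 9.47). Spleen Vps34-deficient 3 was lowest at the Ddx58 promoter (18.5 CPM, the others 21.3 to 21.7). Spleen Vps34-deficient 4 was highest at the Parp14 promoter (21 CPM, the others 13.9 to 14.8) and downstream of Ifit1 (3.26 CPM, the others 2.00 to 2.17), and lowest at the Rtp4 start (6.67 CPM, the others 8.42 to 8.73). Leaving out each of the 4 libraries in turn kept the tissue calls, averaged over genotypes, at these Ifnar2, Rtp4, Ifit1 and Gbp3 peaks and the genotype call, averaged over tissues, at the peak between Gbp7 and Gbp3.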

How the results depend on the processing

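No called result changed direction, and 76 alternatives changed the sign of a value that was not called. Over 129 single-peak results, 2602 alternatives kept the call or lack of one, 100 lost a call, 6 gained one and 14 moved a value that was not called by more than its SE. Among counts of called members, leaving out peaks of 209 to 216 bases gave 11 higher peaks and 3 lower promoter peaks in lung on the average, and 15 called between tissues in Vps34-deficient Tregs (of all peaks 4.49% higher and 3.19% lower). With a replicate block, 3 were higher with genotype, 0 were called in spleen and 13 between tissues in Vps34-deficient Tregs, where of all peaks 2.31% were higher with genotype, 0.0257% higher and 0.26% lower in spleen, and 5.19% and 1.76% between tissues. Same-numbered libraries deviated with correlations of -0.098 to 0.063. In groups of 2 libraries the deviations mirror each other, so these correlations cannot decide whether same numbers mark the same animal. Chromosome Y signal was high in spleen and lung control 1 (56.9 and 67.6 CPM) and low in control 2 (7.025 and 12.8). It was low in spleen and lung Vps34-deficient 1 (9.88 and 21.4 CPM) and high in Vps34-deficient 2 (64.8 and 63.4). Whether these libraries came from the same animals was not tested further. A window of 2 kb (120 member peaks) gave 10 lower in lung, where 6.51% of all peaks were lower. It gave 0 with genotype in spleen and 19 (15.8%) between tissues in Vps34-deficient Tregs, against 1.46% and 17.2% of all peaks. A window of 25 kb (279) gave 8 lower with genotype, 3 called in spleen and 14 in lung. These are 2.87%, 1.08% and 5.02%, against 4.06%, 1.46% and 4.96% of all peaks. With no minimum fold change 5 were lower with genotype (4.86% of all peaks). In spleen 2 were called from halved counts (of all peaks 0.528% higher and 1.54% lower) and 3 with groups compared alone (1.45% and 1.9%), and in lung 2 with groups alone (0.153% and 1.85%). With 1 library left out, 15.7% to 18.3% of all peaks were higher and 5.51% to 8.22% lower in lung on the average. Of promoter peaks in the series, 589 to 1133 were then lower in lung. For genotype, averaged over tissues, the all-peak shares were 1.47% to 5.93% higher and 2.93% to 4.33% lower. Leaving out 1 library gave 19 to 24 higher and 14 to 27 lower in lung, 4 to 7 lower promoters, 2 to 7 higher and 3 to 5 lower with genotype, 1 to 3 in spleen, 3 to 13 in lung, 14 to 30 between tissues in controls and 16 to 34 in Vps34-deficient Tregs, and 0 interactions. The fewest calls between tissues in controls came without spleen control 1 (14, with 3.21% of all peaks higher and 1.66% lower) and spleen control 2 (18, with 6.86% and 2.31%), against 11.8% and 3.53% with all libraries. In Vps34-deficient Tregs they came without lung Vps34-deficient 1 (16, with 8.27% and 2.7%) and 2 (18, with 7.2% and 2.18%), against 12.5% and 4.72%. The count higher with genotype was 2 without spleen Vps34-deficient 2 or lung Vps34-deficient 1 and 3 without spleen control 1, spleen Vps34-deficient 1 or 4, lung control 2 or lung Vps34-deficient 2, with 1.47% to 2.58% of all peaks higher in these fits against 3.52% with all libraries. The count called in spleen was 3 without either lung control and 2 without spleen Vps34-deficient 3, without which 5 were lower with genotype. Over all peaks the spleen shares were 1.19% higher and 1.59% lower without lung control 1, 1.24% and 1.56% without lung control 2, and 0.978% and 1.02% without spleen Vps34-deficient 3, against 0.441% and 1.02%. The causes of these moves were not tested.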

Other observations

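The Ifit2 promoter, named after its values were seen and whose product binds RNA beside Ifit1, had 31.9 and 28.3 CPM in spleen controls, 23.5, 24.9, 24.1 and 26.8 in spleen Vps34-deficient, 33.0 and 31.2 in lung controls and 25.0 and 26.8 in lung Vps34-deficient libraries. The genotypes did not overlap in either tissue, while the tissues overlapped, with a genotype difference of -0.29 on the log2 scale (edgeR adjusted p = 0.0367), short of the fold threshold.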
